A study of Mus musculus with 11 samples.

Results

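The expression of 10 genes that mark monocytes and macrophages was followed in whole mouse pancreas during experimental acute pancreatitis. The genes were Cd14, Lyz2, Ccr2, Clec4e, Mrc1, Msr1, C1qa, C1qb, Cd68 and Csf1r, out of 19938 genes that had a probe set with a single gene symbol on the array. Each of the 10 was represented by 1 such probe set. They were read in classes assigned from general knowledge of these cells: 4 inflammatory-monocyte markers (Cd14, Lyz2, Ccr2 and Clec4e), 4 resident-macrophage markers (Mrc1, Msr1, C1qa and C1qb) and 2 genes of the whole lineage (Cd68 and Csf1r). Wild-type mice of the strain C57Bl6J received caerulein, a peptide that overstimulates the enzyme-secreting acinar cells through the cholecystokinin receptor, as 9 injections spaced an hour apart into the peritoneum. A dose of 50 mg/kg is stated in the series record, and whether that unit is right was not examined. Controls were injected with sodium chloride (NaCl). Total RNA was hybridised to 1 array per sample, 6 for caerulein and 5 for NaCl. The series record counts 4 control mice, while the sample titles name 5 control samples, all of which were used. Age, sex and the time from the last injection to tissue collection are not stated in the labels used.

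Monocytes leave the bone marrow by way of the chemokine receptor CCR2, enter injured tissue and can become macrophages there, whereas resident macrophages are already in place and clear debris through scavenger and mannose receptors. In caerulein pancreatitis, monocytes and macrophages are known to enter the injured gland. All values are log2 expression from RMA (robust multi-array average), so a difference of 1 is a 2-fold change. Levels were not compared between genes, because probe sets differ in their response. Pancreas RNA is a mixture, and in such bulk samples more cells of a type and more RNA per cell cannot be told apart.

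The arrays separated by group, with correlations of 0.981 to 0.991 within groups and 0.938 to 0.955 between them, and caerulein replicate 1 lay farthest from its group on the second principal component, which held 6.56% of the variance. Whether every sample came from its own mouse is not stated, and the p-values therefore cover only the spread among these arrays. Over all genes the median difference, caerulein minus NaCl, was -0.13, and the limma fit (Benjamini-Hochberg adjusted p under 0.05 over all 35556 probe sets) called 20.3% of genes higher and 34.3% lower. The direction of small differences depended on the scaling of the arrays. When each array was shifted to an equal mean of 12 commonly used reference genes, the median over all genes moved by -0.76 from its value as deposited, and 93.5% of called genes were lower. Of those 12 reference genes, 7 were themselves higher in caerulein as deposited. After cyclic loess the median over all genes moved by 0.11.

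In caerulein pancreas all 4 inflammatory-monocyte markers and Cd68 were higher, and of the resident-macrophage markers only Msr1 passed. Of the 10 genes, 6 were higher (background 20.3% of genes) and 0 were lower (background 34.3%), and the other 4, Mrc1, C1qa, C1qb and Csf1r, did not pass, which does not show that their levels were equal. In 6 of the 10 genes the lowest caerulein value exceeded the highest NaCl value, a pattern found in 16.7% of all genes. The median difference was 0.83 over the 10 genes, 1.74 over the 4 inflammatory-monocyte markers and 0.24 over the 4 resident-macrophage markers, beside -0.13 over all genes. The difference between the classes was not tested. With an equal mean of the reference genes, Cd14, Lyz2, Ccr2 and Cd68 remained higher, Clec4e and Msr1 no longer passed, and Mrc1, C1qa, C1qb and Csf1r were lower. Under that scaling 86.5% of all genes were lower and 5.96% higher.

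**Figure D1:**
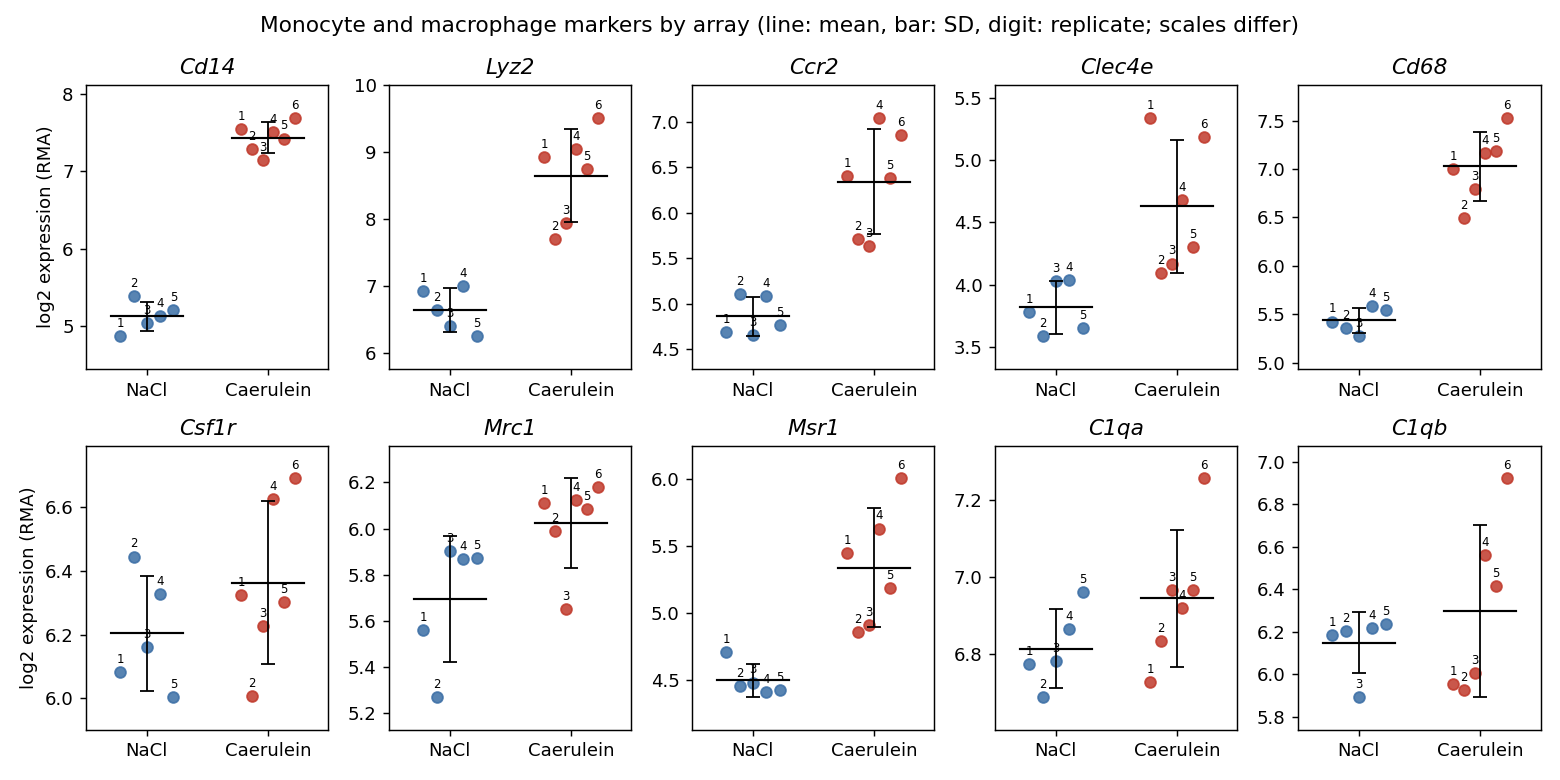
Log2 expression of the 10 markers in each array, with NaCl in blue, caerulein in red, the replicate number above each point, the group mean as a line and the SD as a bar. The vertical scales differ between genes. The groups are separate for Cd14, Lyz2, Ccr2, Clec4e, Cd68 and Msr1 and overlap for Csf1r, Mrc1, C1qa and C1qb.

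Cd14 encodes the co-receptor that hands bacterial lipopolysaccharide to TLR4 and is carried by monocytes, macrophages and neutrophils. Its log2 expression was 4.87, 5.39, 5.04, 5.13 and 5.21 in the NaCl arrays and ran from 7.14 over a median of 7.47 to 7.69 in the caerulein arrays. The groups were far apart, and the spread was alike in them, with SDs of 0.19 (n = 5) and 0.20 (n = 6). The difference was 2.31 (SE 0.11), a 4.94-fold rise (limma adjusted p = 5.2e-09). It remained 1.55 with an equal mean of the reference genes (limma adjusted p = 8.9e-08). Among the caerulein arrays Cd14 varied least of the 4 inflammatory-monocyte markers, over 1.46-fold.

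Lyz2 encodes lysozyme, the bacterial cell-wall hydrolase that macrophages, monocytes and neutrophils make in bulk. It read 6.92, 6.64, 6.40, 7.00 and 6.26 in NaCl and from 7.71 over a median of 8.85 to 9.52 in caerulein. Caerulein replicates 2 and 3 gave the lowest values of that group, 7.71 and 7.94, still above every NaCl array. The difference was 2.01 (SE 0.29), or 4.02-fold (limma adjusted p = 0.00012). The range within the caerulein group, 3.50-fold, was the widest of the 10 genes. Its neighbour and close copy Lyz1, whose probes may not be fully separate from those of Lyz2 and which was chosen after its value was seen, rose by 0.68 (SE 0.16, limma adjusted p = 0.00495).

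Ccr2, the receptor for the monocyte chemokine CCL2, was 4.69, 5.11, 4.66, 5.08 and 4.76 in NaCl and ran from 5.63 over a median of 6.39 to 7.04 in caerulein. Replicates 2 and 3 again formed the low end, at 5.71 and 5.63, and replicate 4 was the highest. The difference was 1.48 (SE 0.24), or 2.78-fold (limma adjusted p = 0.00028). Clec4e encodes Mincle, a lectin that senses dead cells and mycobacterial glycolipid and is found on activated monocytes, macrophages and neutrophils. It read 3.78, 3.59, 4.03, 4.04 and 3.65 in NaCl and from 4.09 over a median of 4.49 to 5.34 in caerulein. The lowest caerulein array lay only just above the highest NaCl array, while replicates 1 and 6 were well above, at 5.34 and 5.19. The difference was 0.81 (SE 0.22), or 1.75-fold (limma adjusted p = 0.0106). It was 0.05 with an equal mean of the reference genes (limma adjusted p = 0.814).

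Cd68, a lysosomal membrane protein of phagocytes, was 5.42, 5.36, 5.27, 5.59 and 5.54 in NaCl and ran from 6.49 over a median of 7.08 to 7.53 in caerulein. The groups did not overlap, and the SD was larger in caerulein (0.36, n = 6) than in NaCl (0.13, n = 5). The difference was 1.59 (SE 0.15), or 3.01-fold (limma adjusted p = 2.8e-06). Csf1r encodes the receptor for the macrophage growth factors CSF1 and IL-34. It was 6.08, 6.45, 6.16, 6.33 and 6.00 in NaCl and from 6.01 over a median of 6.31 to 6.69 in caerulein. The groups overlapped, and only caerulein replicates 4 and 6 exceeded the highest NaCl array. The difference of 0.16 (SE 0.13) did not pass (limma adjusted p = 0.327). It was -0.60 with an equal mean of the reference genes (limma adjusted p = 0.00016).

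Msr1, the class A scavenger receptor that takes up modified lipoproteins and bacteria, was the one resident-macrophage marker past the threshold. It read 4.71, 4.45, 4.48, 4.41 and 4.42 in NaCl and from 4.86 over a median of 5.31 to 6.01 in caerulein. No caerulein array fell into the NaCl range, and replicate 6 was the highest. The difference was 0.84 (SE 0.18), or 1.79-fold (limma adjusted p = 0.0024). It was 0.09 with an equal mean of the reference genes (limma adjusted p = 0.593).

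Mrc1 encodes the mannose receptor CD206, found on tissue macrophages and on some lymphatic and sinusoidal endothelium. It read 5.56, 5.27, 5.90, 5.87 and 5.87 in NaCl and from 5.65 over a median of 6.10 to 6.18 in caerulein. In 5 of 6 caerulein arrays it lay above every NaCl array, and replicate 3, at 5.65, lay among them. The difference of 0.33 (SE 0.13) missed the threshold (limma adjusted p = 0.0551). Leaving out NaCl replicate 3, 4 or 5, or caerulein replicate 3, brought it past (differences of 0.38, 0.37, 0.37 and 0.40, limma adjusted p = 0.0448, 0.0493, 0.0497 and 0.0171). The call was also made after a second quantile normalisation (0.42, limma adjusted p = 0.0217) and after cyclic loess (0.47, limma adjusted p = 0.0128), whereas with an equal mean of the reference genes the difference was -0.43 (limma adjusted p = 0.00863). When any other array was left out Mrc1 did not pass, with a limma adjusted p up to 0.13 (difference of 0.22, without NaCl replicate 2).

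C1qa and C1qb encode chains of C1q, the recognition unit of the classical complement pathway, which macrophages supply. C1qa was 6.77, 6.69, 6.78, 6.86 and 6.96 in NaCl and ran from 6.73 over a median of 6.94 to 7.25 in caerulein. The groups overlapped, with 3 of 6 caerulein arrays above the NaCl range. The difference was 0.13 (SE 0.09, limma adjusted p = 0.26). C1qb was 6.19, 6.20, 5.89, 6.22 and 6.24 in NaCl and ran from 5.93 over a median of 6.21 to 6.92 in caerulein. Caerulein replicates 1 to 3 lay at 5.93 to 6.01, below 4 of the 5 NaCl arrays, and replicates 4 to 6 at 6.42 to 6.92, above all of them. The difference over all 6 arrays was 0.15 (SE 0.17, limma adjusted p = 0.495). Against the same NaCl arrays it was -0.18 for replicates 1 to 3 (limma adjusted p = 0.176) and 0.48 for replicates 4 to 6 (limma adjusted p = 0.016). This split runs along the gap seen in the values. The p-values therefore do not test whether C1qb was raised in a subset of the arrays. C1qc, the remaining chain, chosen here after its values were seen, had a difference of -0.21 (SE 0.16, limma adjusted p = 0.331).

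**Figure D2:**
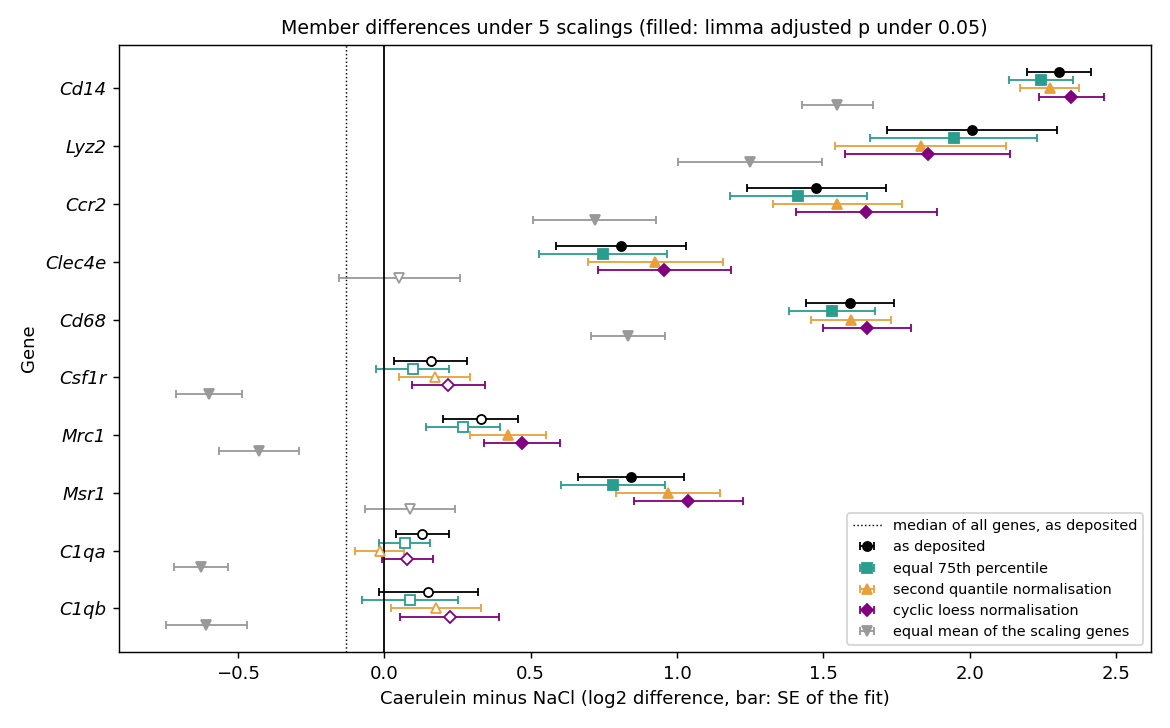
Difference between caerulein and NaCl for each marker under 5 scalings of the arrays, with the SE of the fit as a bar and filled symbols for a limma adjusted p under 0.05. The dotted line is the median over all genes as deposited, -0.13. Cd14, Lyz2, Ccr2 and Cd68 are filled and above 0 under all 5, while Mrc1, C1qa, C1qb and Csf1r are below 0 with an equal mean of the reference genes, named scaling genes in the key.

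The caerulein arrays differed from each other in these markers, and mostly in the same order. Replicate 6 had the highest value of the group in 8 of the 10 genes and was among the 2 highest in all 10. Replicate 2 was among the 2 lowest in all 10 genes and replicate 3 in 8. The 10 genes make 45 pairs, and over the 6 caerulein arrays Pearson's r was above 0 in 45 of them, with a median of 0.80 and a range from 0.13 to 0.96. Values of 1 array share its scaling, which was not independent between genes. The pairs share the same 10 genes and 6 arrays, so they are not 45 separate observations. No values for pairs of other genes are given for comparison. With an equal mean of the reference genes r was above 0 in 40 pairs, with a median of 0.63, and after a second quantile normalisation in 44 pairs, with a median of 0.80.

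After Benjamini-Hochberg adjustment over the 45 pairs, 0 Pearson correlations passed by the exact permutation test (smallest adjusted p = 0.0625), against 21 at an unadjusted p under 0.05. By Spearman's rho 3 passed. These were the pairs among Lyz2, Msr1 and Csf1r, which put the 6 arrays in an identical order (rho = 1.00, exact permutation p = 0.00278, adjusted p = 0.0417). With the reference genes set equal, 0 pairs passed by Spearman's rho, and 4 had an unadjusted exact permutation p under 0.05, against 16 as deposited. For Lyz2 and Msr1 Pearson's r was 0.96 (exact permutation p = 0.00139, adjusted p = 0.0625) and 0.98 without the 2 arrays farthest from the median of Lyz2. For C1qa and C1qb r was 0.83 (exact permutation p = 0.0292, adjusted p = 0.0833) and rho 0.77 (exact permutation p = 0.103, adjusted p = 0.159). Without the 2 arrays farthest from the median of C1qa r was 0.41. Leaving out extremes narrows the range and few arrays remain, so this cannot show whether the relation rested on them. Clec4e and C1qa had the weakest relation, with r = 0.13 (exact permutation p = 0.842, adjusted p = 0.842) and rho = -0.03 (exact permutation p and adjusted p of 1).

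**Figure D3:**
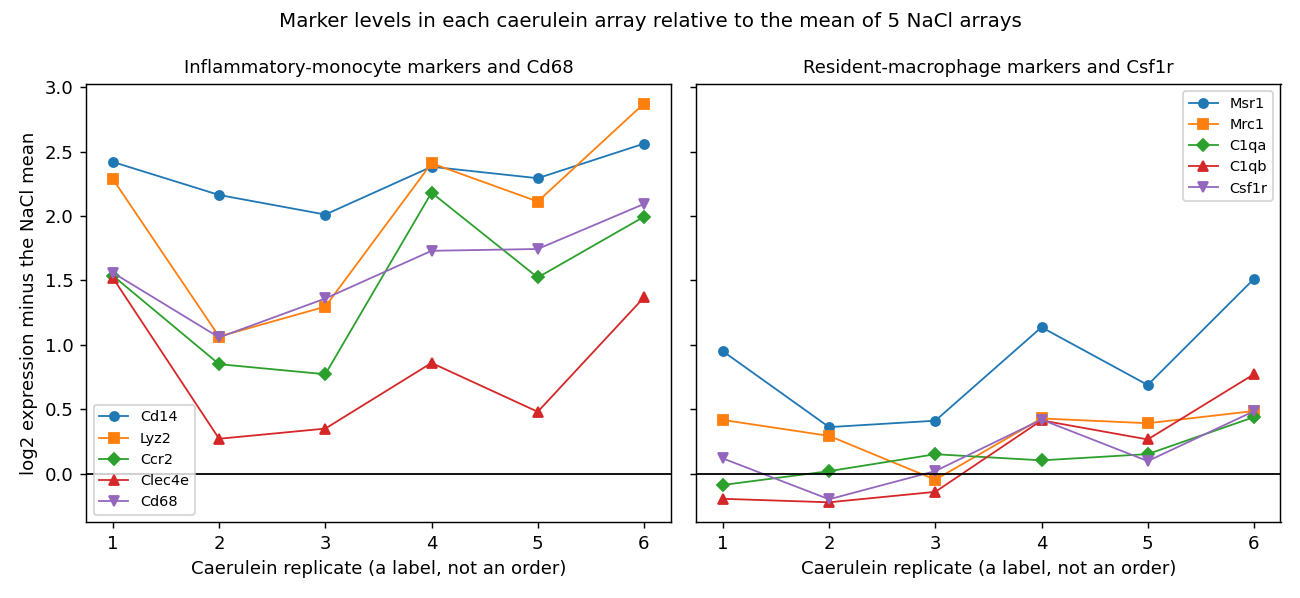
Log2 expression of each marker in the 6 caerulein arrays minus its mean over the 5 NaCl arrays, with inflammatory-monocyte markers and Cd68 on the left and resident-macrophage markers and Csf1r on the right. Lines join values of a gene and imply no order of the replicates. Replicates 2 and 3 are low and replicate 6 is high for most genes.

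The mean of the last 3 caerulein replicates was above that of the first 3 in all 10 genes, but the values separated completely in only 2, C1qb and Cd68. The share of all genes that did so is not given here. Because the 10 genes varied together over these arrays, they are not 10 separate observations. Cd68 lay at 6.49 to 7.00 in replicates 1 to 3 and at 7.17 to 7.53 in replicates 4 to 6. No batch is given for these numbers, and 3 arrays against 3 cannot reach an exact p below 0.1. Deviations from the group means were compared over 18163 named genes and all 11 arrays, as a description. The genes most like the mean of the 4 inflammatory-monocyte markers were Lilr4b (r = 0.97), a myeloid inhibitory receptor, Zfp991 (r = 0.96) and the matrix glycoprotein gene Fn1 (r = 0.96). The genes most like the mean of the 4 resident-macrophage markers were Cfp (r = 0.95), which encodes the complement factor properdin, Orc2 (r = 0.95), which encodes a subunit of the origin recognition complex, and Ifitm6 (r = 0.95). Ifitm6 stands on the wider list of inflammatory-monocyte genes described next, as does Fn1.

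Wider lists for the same cells gave the background to the 10 markers. Their counts stand beside 20.3% of all genes higher and 34.3% lower as deposited. With the reference genes set equal these shares were 5.96% and 86.5%. The median over 18 further inflammatory-monocyte genes was 0.92, and 10 of them were higher and 0 lower (7 and 6 when the reference genes were set equal). Vcan, a matrix proteoglycan made by monocytes, was 5.03-fold higher, Ms4a6c 4.28-fold and Thbs1, which platelets and fibroblasts also make, 8.43-fold. The values for the effector genes Tnf (-0.14, limma adjusted p = 0.44), Nos2 (-0.12, limma adjusted p = 0.26) and Il1b (0.57, limma adjusted p = 0.061), chosen after they were seen, did not pass. Among 20 further resident-macrophage genes, 4 rose and 5 fell (0 and 20 when the reference genes were set equal). As deposited, neither count exceeded the share of all genes. Their median was -0.08, and 0.05 after a second quantile normalisation. Adgre1, which encodes a surface receptor widely used to stain mouse macrophages, rose by 0.46 (limma adjusted p = 0.022). Selenop, a selenium carrier that many cell types secrete, was 4.93-fold lower and Cd209f 1.40-fold lower. The median over 19 genes of the myeloid lineage was 0.43, and 12 were higher and 1 lower (5 and 11 when the reference genes were set equal). The tetraspanin gene Cd53 was 4.45-fold higher, the signalling adaptor gene Fcer1g 2.96-fold and the integrin gene Itgam 2.85-fold. Csf2ra, a chain of the receptor for GM-CSF, fell by 0.24 (limma adjusted p = 0.0214).

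**Figure D4:**
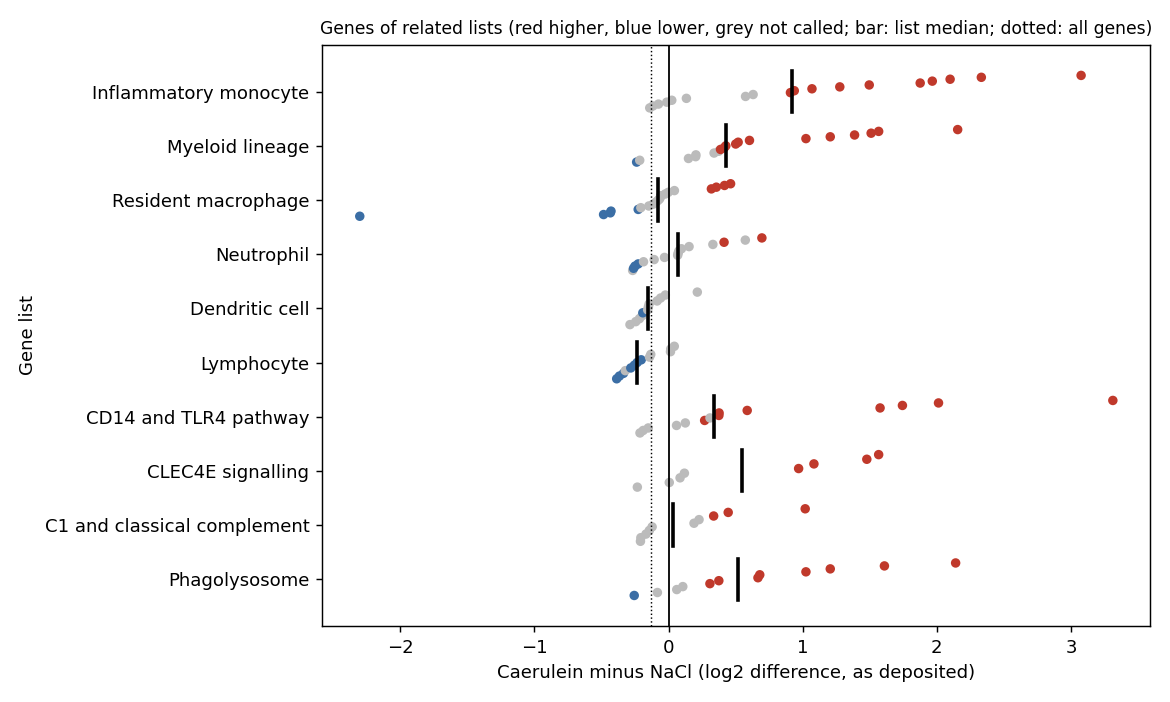
Difference between caerulein and NaCl for the genes of 10 related lists, as deposited, with genes called higher in red, genes called lower in blue and others in grey. The black bar is the median of the list and the dotted line the median over all genes, -0.13. The inflammatory-monocyte list has the highest median, 0.92, and the lymphocyte list the lowest, -0.23.

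Signals that act on the markers' receptors were read from further lists, beside 20.3% of all genes higher and 34.3% lower as deposited (5.96% and 86.5% with the reference genes set equal). Of the CSF1 receptor ligands, Csf1 rose from 6.12 ± 0.17 (SD, n = 5) to 6.73 ± 0.30 (SD, n = 6), a difference of 0.61 (SE 0.14, limma adjusted p = 0.00331), and Il34 fell by 0.31 (SE 0.09, limma adjusted p = 0.0103). Setting the reference genes equal left 0 of these higher and 1 lower, and after a second quantile normalisation 1 was higher and 0 lower. Among 7 CCR2 ligands, related receptors and decoy receptors the median was 0.19, and 3 were higher and 0 lower (0 and 4 when the reference genes were set equal). The ligand genes Ccl2 and Ccl7 were 2.12-fold and 2.05-fold higher, and the receptor gene Ccr1 was 1.81-fold higher. For Ccl2, 5 of 6 caerulein arrays lay above the NaCl range. The differences for Ccl12 (0.18, limma adjusted p = 0.359), Ccl8 (-0.11, limma adjusted p = 0.334), Ackr1 (0.19, limma adjusted p = 0.0559) and Ackr2 (-0.19, limma adjusted p = 0.101) did not pass.

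The CD14 and TLR4 pathway, with 14 genes, had a median of 0.34, and 8 were higher and 0 lower (4 and 9 when the reference genes were set equal). The shares of all genes were 20.3% and 34.3% (5.96% and 86.5% when the reference genes were set equal). Ly96, which encodes the TLR4 partner MD-2, rose 9.93-fold from 4.55 ± 0.27 (SD, n = 5) to 7.86 ± 0.34 (SD, n = 6; limma adjusted p = 7.7e-09). Irak3, an inhibitor of the pathway, was 4.03-fold higher and the adaptor gene Tirap 3.35-fold. The mean deviation from NaCl over the genes of this list stayed within 0.68 to 0.81 over the caerulein arrays, while that of the 4 inflammatory-monocyte markers ran from 1.09 to 2.20. In the NaCl arrays these means ran from -0.06 to 0.06 and from -0.14 to 0.20. A mean over 14 genes can vary less than a mean over 4 through averaging alone, so the 2 ranges are not alike in kind. The 8 partners and signalling genes of Clec4e had a median of 0.54, and 4 were higher and 0 lower (3 and 4 when the reference genes were set equal). The adaptor gene Fcer1g, the partner lectin gene Clec4d (2.79-fold), the lectin gene Clec4n (1.96-fold) and Bcl10 (2.12-fold), which relays the signal to NF-kB, were higher. The kinase gene Syk (0.01, limma adjusted p = 0.97), Card9 (-0.23, limma adjusted p = 0.0503), Malt1 (0.09, limma adjusted p = 0.54) and Clec7a (0.12, limma adjusted p = 0.27) did not pass.

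Other genes listed with the C1 complex and the classical complement pathway mostly did not pass. Of 10, 3 were higher, 0 lower and 7 not called. Of all 19938 genes 20.3% were higher, 34.3% lower and 9048 genes not called, and with the reference genes set equal 5.96% were higher and 86.5% lower. The median of the 10 was 0.03. The higher and lower counts were 0 and 9 when the reference genes were set equal, and 1 and 0 after a second quantile normalisation. Those higher were Serping1 (1.36-fold), the C1 inhibitor gene, Cd93 (2.03-fold) and Lrp1 (1.26-fold), an endocytic receptor. Cd93 and Lrp1 were on the list but are not components of the pathway. Scavenger and mannose receptor genes numbered 14, and 5 were higher and 1 lower (1 and 13 when the reference genes were set equal). Their median was -0.03, and 0.01 after a second quantile normalisation. The fatty acid translocase gene Cd36 was 3.05-fold higher, Scarb2, a lysosomal receptor, 1.42-fold higher and the ferritin receptor gene Scara5 1.44-fold lower. The median over 12 phagolysosome genes was 0.52, and 8 were higher and 1 lower (3 and 6 when the reference genes were set equal). The cathepsin genes Ctsl, Ctsb and Ctss were 4.41-fold, 3.05-fold and 2.31-fold higher, and Gpnmb was 1.19-fold lower. Ctsl and Ctsb are also expressed by acinar cells. For 12 macrophage transcription factors the median was 0.13, and 4 were higher and 0 lower (2 and 8 when the reference genes were set equal). Cebpb, Cebpa and Runx1 were 2.74-fold, 2.08-fold and 1.69-fold higher. Spi1, which encodes the myeloid master factor PU.1 and was chosen after its value was seen, had a difference of 0.20 (limma adjusted p = 0.0962).

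Bases before the RefSeq start site are shown for members of each class, so that the myeloid motifs they hold can be compared. The RefSeq table of build GRCm38.p6 held 6 of the 10 genes, Lyz2, Ccr2, Clec4e, Mrc1, C1qb and Cd68; Cd14, Msr1, C1qa and Csf1r were not among them. The window of Ccr2 lies inside the annotated gene and is not shown. The other 5 are printed 5′ to 3′ on the strand of the gene, 250 bases each up to the base before the start, with capitals for GAGGAA, a form of the PU.1 motif, on either strand.
Lyz2, chr10:117282273-117282522, minus strand: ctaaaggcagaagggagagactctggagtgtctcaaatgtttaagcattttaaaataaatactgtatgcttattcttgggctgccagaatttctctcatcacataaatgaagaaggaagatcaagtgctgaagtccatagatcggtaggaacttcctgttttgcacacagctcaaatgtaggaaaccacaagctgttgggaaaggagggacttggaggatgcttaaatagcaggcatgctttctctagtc
Clec4e, chr6:123289872-123290121, minus strand: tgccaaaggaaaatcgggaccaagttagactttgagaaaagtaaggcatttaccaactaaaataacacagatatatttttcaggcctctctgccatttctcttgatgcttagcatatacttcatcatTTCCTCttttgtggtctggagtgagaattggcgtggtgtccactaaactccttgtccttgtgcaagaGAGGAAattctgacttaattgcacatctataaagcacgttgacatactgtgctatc
Cd68, chr11:69666171-69666420, minus strand: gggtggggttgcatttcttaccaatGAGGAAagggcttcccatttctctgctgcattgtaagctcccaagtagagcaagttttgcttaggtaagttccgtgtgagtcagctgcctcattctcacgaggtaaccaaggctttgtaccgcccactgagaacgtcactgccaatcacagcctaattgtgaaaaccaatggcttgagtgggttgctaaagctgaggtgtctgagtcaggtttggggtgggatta
Mrc1, chr2:14229164-14229413, plus strand: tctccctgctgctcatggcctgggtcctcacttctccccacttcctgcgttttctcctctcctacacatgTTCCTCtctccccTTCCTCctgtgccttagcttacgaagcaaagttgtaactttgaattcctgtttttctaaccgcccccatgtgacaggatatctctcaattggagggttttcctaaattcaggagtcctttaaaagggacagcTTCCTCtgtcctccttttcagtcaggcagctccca
C1qb, chr4:136886201-136886450, minus strand: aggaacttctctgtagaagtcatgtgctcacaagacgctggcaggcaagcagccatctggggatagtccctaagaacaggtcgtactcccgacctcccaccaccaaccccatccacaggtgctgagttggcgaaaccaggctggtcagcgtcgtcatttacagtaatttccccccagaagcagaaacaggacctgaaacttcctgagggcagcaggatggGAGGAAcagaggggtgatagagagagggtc
Clec4e held this motif 2 times, Mrc1 3 times, and C1qb and Cd68 1 time each, whereas Lyz2 and Ccr2 did not hold these letters. So 4 of the 6 windows held it, against 23.3% of the 32851 windows of that length in the table. The C/EBP form TTGCNNAA, searched on both strands, was in the windows of Clec4e and Cd68 and in 9.56% of all windows. The AP-1 form TGANTCA, which reads as itself on the other strand, was in that of Cd68 alone among the 6, at 2 places, and in 6.75% of all windows. None of these motifs overlapped another in the windows shown. The PU.1 form was present in windows of genes whose arrays separated (Clec4e and Cd68) and of genes whose arrays overlapped (Mrc1 and C1qb), and a match is a description of the letters, not a binding site.

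Several of the markers are shared with other cells, and lists for those cells were read the same way. Of all genes 20.3% were higher and 34.3% lower as deposited, and 5.96% and 86.5% when the reference genes were set equal. The median over 16 neutrophil markers was 0.07, and 2 were higher and 3 lower (0 and 14 when the reference genes were set equal, 3 and 0 after a second quantile normalisation). Their mean deviation from NaCl ran from -0.17 to 0.37 in the caerulein arrays and from -0.03 to 0.04 in the NaCl arrays. It was highest in replicate 6, where the 4 inflammatory-monocyte markers were highest too, and lowest in replicate 5. Their part in the differences of Cd14, Lyz2 and Clec4e was not tested. Lrg1, which many tissues make in the acute phase, was 1.62-fold higher and Mmp8 1.33-fold. The defining genes S100a8 (0.33, limma adjusted p = 0.113), S100a9 (0.15, limma adjusted p = 0.52) and Ly6g (-0.11, limma adjusted p = 0.236), chosen after their values were seen, did not pass. Of 12 dendritic cell markers 0 were higher and 1 lower (median -0.15), of 13 lymphocyte markers 0 and 7 (median -0.23) and of 6 mast cell markers 0 and 2 (median -0.18). When the reference genes were set equal all of these were lower, and after cyclic loess 0, 1 and 0 were. The fit without the dimmer probe sets kept 5 of the 16 neutrophil and 5 of the 12 dendritic cell markers. It kept 5 of the 13 lymphocyte and 3 of the 6 mast cell markers. The rest may lie near background, so a missing call there does not show equal levels. Fibroblast markers were higher in 3 and lower in 1 of 9 genes, endothelial markers in 4 and 3 of 12, acinar markers in 1 and 4 of 10 and duct markers in 5 and 1 of 8, with an equal mean of the reference genes in 0 and 6, 1 and 11, 0 and 9, and 3 and 4.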

How the data were processed

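Values were read from a table of 35556 probe sets on 11 arrays. The authors deposited log2 expression values, and per the submitters' processing notes RMA, oligo and limma were used; their versions and the genome build are not given in these sources. The platform annotation gave a single symbol for 21789 of them, several for 1621 and did not list 12146. The RefSeq gene table matched 21698 by Entrez identifier, with 0 renamed. Where a gene had several, the one brightest on average over the 11 arrays stood for it. There were no missing values and no identical arrays. Detection calls were not used here, so a dim value may be background. The number of arrays sets the precision.

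Groups were compared in limma 3.58.1 under R 4.3.3 (lmFit, eBayes, no covariates, two-sided), with Benjamini-Hochberg adjustment over all probe sets and a threshold of 0.05; adjusted p-values come from limma except where an exact permutation test is given. SE is that of the fit. The fit was tested on simulated data. Correlations used exact permutation tests over the 6 caerulein arrays.

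The markers, the 19 further gene lists and the rule for naming genes were chosen with earlier results of these data known. The rule named the 10 markers, all members of lists of up to 8 genes, in longer lists the largest called differences and the largest against the majority, and the 3 genes most like each class of 4 markers; for lists of other cell types mostly counts are given. Genes outside the rule are marked in the text as chosen afterwards. List counts are descriptions with no set test, and Fcer1g, Spi1, Ctss, Cybb, C1qc, Cd163 and Marco stand on 2 lists each. The alternatives tried were array weights, a robust prior with a trend, 4 scalings (equal mean of reference genes, equal 75th percentile, second quantile normalisation, cyclic loess), a fit without the 50 percent of probe sets that were dimmest, a block for the replicate number, a fit on genes alone with the probe sets of a gene averaged, leaving out each array, caerulein replicates 1 to 3 or 4 to 6 only, and an exact permutation test. Same-numbered arrays of the groups did not deviate together (correlations of deviations from the group means of -0.05 to 0.06 over 5 pairs), so the numbers were not taken as pairs.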

Additional observations from a re-analysis of the deposited data

Results flagged for a closer look

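Among the 10 markers 20 groups of arrays were examined for a single distant array, and 3 had one. How many would have one by chance was not tested, and the genes share the same arrays, so the groups are not separate observations. Mrc1 in caerulein replicate 3 was 5.65, the lowest of its group, with the nearest array at 5.99. Without that array its difference was 0.40 (limma adjusted p = 0.0171). Msr1 in NaCl replicate 1 was 4.71, the highest of its group, with the nearest array at 4.48, and without that array the difference was 0.90 (limma adjusted p = 0.00358). C1qb in NaCl replicate 3 was 5.89, the lowest of its group, with the nearest array at 6.19, and without that array the difference was 0.09 (limma adjusted p = 0.727). Each of these arrays was picked for its distant value, which set the direction in which leaving it out moved the difference. The p-values without them are therefore descriptions and not tests.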

How the results depend on the processing

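Cd14, Lyz2, Ccr2 and Cd68 were higher under every alternative run. With an equal mean of the reference genes Clec4e (0.052, limma adjusted p = 0.814) and Msr1 (0.087, limma adjusted p = 0.593) lost the call, and Mrc1 (-0.43), C1qa (-0.63), C1qb (-0.61) and Csf1r (-0.60) were called lower. There 4 markers in all and 3 resident-macrophage markers were lower, 0 resident-macrophage markers were higher, the median of the 10 was 0.069, 12 of the 45 correlations had an unadjusted p under 0.05, and 27 genes of the further lists were higher and 162 lower, against 73 and 31 as deposited. Those lower numbered 51 with an equal 75th percentile, 18 after cyclic loess and 20 with caerulein replicates 4 to 6 only.

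Mrc1 passed with caerulein replicates 4 to 6 only (0.44), with cyclic loess (0.47) and with a second quantile normalisation (0.42). It also passed without the dimmer probe sets or with the fit on genes alone (0.33 each, limma adjusted p = 0.0344 and 0.0233). It did not pass with array weights (0.29, limma adjusted p = 0.075) or an equal 75th percentile (0.27, limma adjusted p = 0.0901). Nor did it with the robust prior (0.33, limma adjusted p = 0.0556), the replicate block (0.30, limma adjusted p = 0.126) or caerulein replicates 1 to 3 only (0.22, limma adjusted p = 0.342). The exact permutation test of Mrc1 (0.33, p = 0.0476) was not adjusted over probe sets, so it cannot be set against the adjusted threshold. The limma p of Mrc1 as deposited was 0.0249 before adjustment. C1qa was -0.015 after a second quantile normalisation. Resident-macrophage markers called higher numbered 2 after cyclic loess, 2 after a second quantile normalisation and 2 in the fit on genes alone, and 3 with caerulein replicates 4 to 6 only. With replicates 1 to 3 only, Clec4e was 0.71 (limma adjusted p = 0.0648), C1qb -0.18 and Csf1r -0.019; with replicates 4 to 6 only, C1qb was 0.48. Clec4e and Msr1 were among the dimmer probe sets and have no value without them. The cause of these changes was not tested.

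Leaving out each array in turn, the difference of Mrc1 ran from 0.22 to 0.40, that of Clec4e from 0.67 to 0.92, C1qa from 0.069 to 0.17, C1qb from 0.025 to 0.22 and Csf1r from 0.093 to 0.23, the last 3 lowest without caerulein replicate 6, and 6 to 7 markers were higher and 1 to 2 resident-macrophage markers were. With the replicate number as a block, the differences were 2.25 for Cd14, 0.70 for Clec4e, 0.30 for Mrc1 and 0.71 for Msr1. No NaCl array bears the number 6, so these equal the differences without caerulein replicate 6. Under the block 6 markers were higher and 0 lower, and no call on a marker changed. Over all genes 3750 were higher and 5477 lower.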
